A study of Mus musculus with 12 samples.

Results

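The genes described here are Myc, its relative Mycn, and 40 genes of ribosome production and polyamine synthesis, 42 of the 43243 gene names measured. The list was chosen with earlier results of these data known, so counts set beside all genes describe it and test nothing. The genes were followed in 12 RNA-seq libraries of prostate organoids from mice, which are cells of digested prostate cultured in Matrigel with EGF. Of the libraries, 6 carried a mutant SPOP (SPOPmut) and 6 served as controls (SPOPwt). Both groups carry the numbers S0 to S5, and a mutant is compared with the control of its number. SPOP is the substrate-binding part of a cullin-based ubiquitin ligase and is recurrently mutated in prostate cancer. The inducible cultures carried CreERT2, a recombinase switched on by tamoxifen, brought in by a virus with puromycin selection (Line_A) or by a transgenic TMPRSS2-CreERT2 (Line_B), and 4-Hydroxytamoxifen was added overnight. Mutant cells were then sorted for GFP and control cells were sham sorted, so the mutant and the selection for GFP cannot be told apart. The protocols give 5 pairs to model A and 1 to model B, but no library carries its model in its label. They name the allele F133V only for a further line with Cre under the Probasin promoter, and neither ages nor the number of animals behind the cultures are stated. Nothing says that the libraries came from separate animals, so p-values reflect no more than how these 12 samples spread, which may be technical.

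MYC is a transcription factor that pairs with MAX and binds E-boxes, short DNA motifs of which CACGTG is the classical form. Among its best known targets are genes for making ribosomes: RNA polymerase I transcribes the precursor of ribosomal RNA in the nucleolus, small nucleolar particles guide its chemical modification, and assembly factors fold and cut it into the small and the large subunit. Odc1 and Srm, which make the polyamines putrescine and spermidine, are likewise textbook MYC targets. In the prostate, MYC is a frequently amplified oncogene.

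Since the members are often described as direct MYC targets, their promoters were searched for CACGTG, which reads the same on both strands. RefSeq promoter windows of 300 bases (250 before and 50 after the start site, GRCm38.p6) were matched by symbol for 35 of the 42 members. Of these, 9 held the motif (25.7%), against 12% of the 8369 tested genes with a window and 8.09% of all 27025 symbols with one. In 8 of the 9 it lay after the start site, a position held by 1.96% of the tested genes with a window; this split was chosen after the positions were seen. The 9 stretches are shown because they carry the motif, in capitals, 5′ to 3′ on the strand of the gene, and stretches near the end of the window are shorter.
Mybbp1a: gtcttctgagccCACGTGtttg
Wdr43: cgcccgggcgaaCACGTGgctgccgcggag
Utp20: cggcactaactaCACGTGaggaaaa
Tsr1: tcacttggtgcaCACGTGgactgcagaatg
Ltv1: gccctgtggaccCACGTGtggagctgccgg
Pno1: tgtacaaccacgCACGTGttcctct
Nop2: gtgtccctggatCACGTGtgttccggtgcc
Pes1: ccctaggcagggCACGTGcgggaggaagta
Grwd1: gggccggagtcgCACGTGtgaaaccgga
The first base of the motif lay at position 40 from the start site in Mybbp1a (chr11:72441355-72441376, plus strand), 17 in Wdr43 (chr17:71616220-71616249, plus), 37 in Utp20 (chr10:88826765-88826789, minus) and 24 in Tsr1 (chr11:74898092-74898121, plus). It lay at 28 in Ltv1 (chr10:13193092-13193121, minus), 37 in Pno1 (chr11:17211540-17211564, minus), 2 in Pes1 (chr11:3963965-3963994, plus) and 34 in Grwd1 (chr7:45830740-45830767, minus). Nop2 alone had it before the start, at -60 (chr6:125131811-125131840, plus). A match is a run of letters and not a measured binding site. Members with and without the motif had the same median difference between mutant and control in pair S0, -1.23 on the log2 scale in both (9 and 25 tested members).

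The libraries had an estimated 28270000 to 40980000 reads each, from the spacing of low values. Depths 2 times as high fit that spacing alike, and the lower ones are given. Pair S5 stood apart in cell type markers: Krt5, a basal epithelial keratin, was at 1194 and 1705 RPKM (reads scaled to transcript length and sequencing depth) and Epcam, an epithelial surface protein, at 88.6 and 96.3 RPKM. In S0 to S4 these 2 genes reached at most 0.241 and 1.28 RPKM, while the collagen gene Col1a1 was at 269 to 848 RPKM and Vim, a filament gene of mesenchymal cells, at 213 to 525 RPKM. In 10 of 12 libraries labelled prostate organoid, Krt5 and Epcam were thus at or near 0, while the summed level of 8 luminal markers was 74.8 to 219 RPKM there against 1477 and 1531 in S5. Col1a1 and Vim were at 0.202 RPKM or less in S5. Ptprc and Pecam1, of blood and vessel cells, stayed at 0.446 RPKM or below throughout. The libraries of S0 deviated together from their group means hardly at all (correlation across genes 0.0602, against 0.753 to 0.954 in the other pairs). For the mutants of S0 and S1 the closest control was that of S2 (correlations of 0.967 and 0.989, against 0.944 and 0.987 for the own control). In both groups the S1 and S2 libraries were the most alike. In bulk RNA, fewer cells of a type and less RNA per cell cannot be told apart.

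No member was called different between SPOPmut and SPOPwt. limma, fitted to log2(RPKM + 1) with pair and genotype over 13600 genes, called 0 genes higher and 0 lower at a Benjamini-Hochberg adjusted p under 0.05 (0% of genes in each direction), and likewise 0 without S0 (0%). At an unadjusted p under 0.05 there were 520 genes higher and 241 lower with all pairs, and 647 and 429 without S0. Of the 41 members tested, 40 had a lower fitted mean in the mutant, with a median difference of -0.20 on the log2 scale against 0.00055 over all genes. Without S0 that median was 0.014. The lower median of the list thus rested on 1 pair. Of the single members, 25 changed direction without S0 and 16 kept it. Mycn was not tested, since it reached 1 RPKM in 5 libraries and 6 were required.

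**Figure D1:**
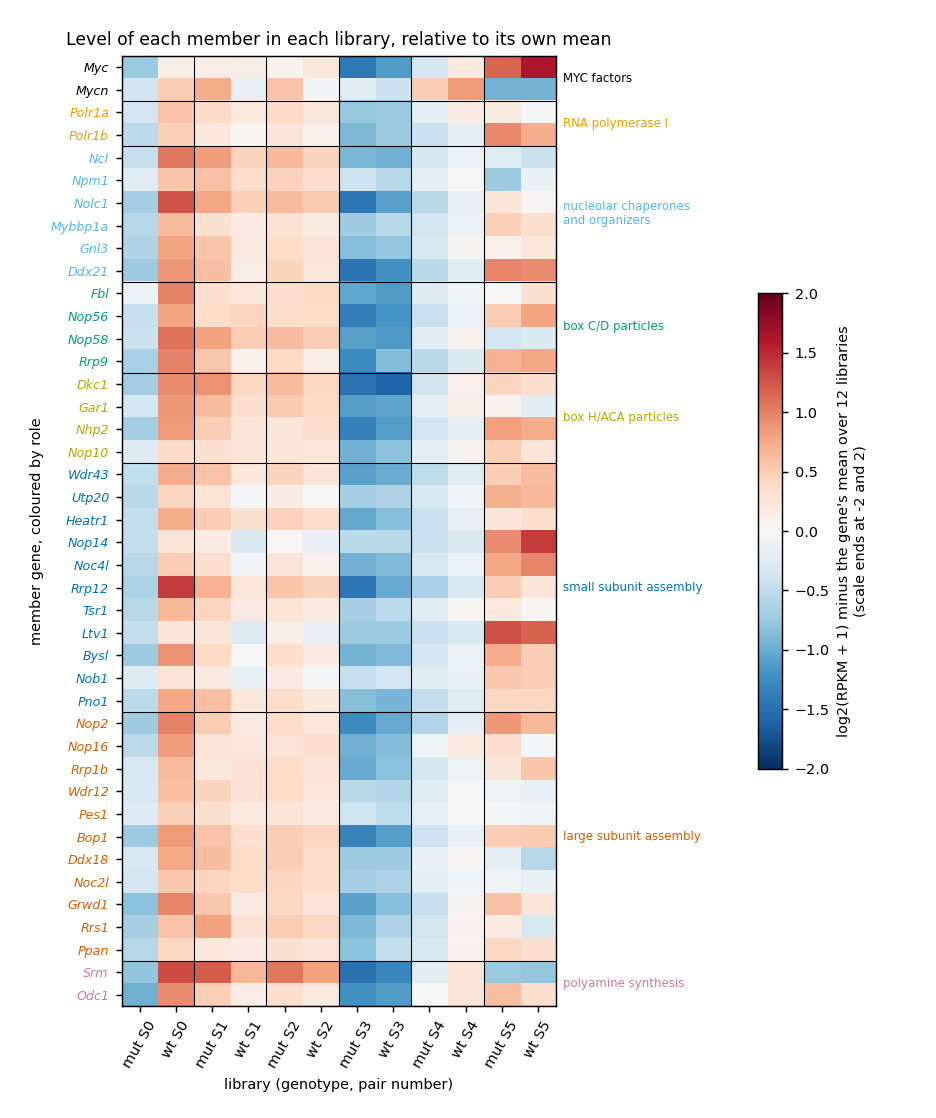
Heat map of log2(RPKM + 1) for the 42 members (rows, grouped by role) in the 12 libraries (columns, by pair and genotype), each row centred on its own mean, with red above and blue below it. The S0 control holds the highest level of 28 members, and the 2 libraries of S3 hold the lowest of 40, counts not made over all genes.

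The members largely shared the libraries of their highest and lowest levels. Except for S4, the counts in this paragraph were not made over all genes, so they are not read as particular to the members. The median over the 42 members was 33.2 RPKM in the S0 control, the highest, and 28 members had their highest level there. It was 25.7 RPKM in the S1 mutant and 24.5 in the S2 mutant, 24.0 in the S2 control and 22.7 in the S1 control. S5 was close to these, with 24.7 RPKM in the mutant and 21.9 in the control. Then came the S4 control at 19.4 RPKM, the S4 mutant at 15.9 and the S0 mutant at 13.3, and last the S3 control at 10.4 and the S3 mutant at 10.0. Some neighbours in this order were separated by nearly every member and others were not. Of 41 tested members, 38 were higher in the S0 control than in the S1 mutant. In the S4 control 41 of 41 were higher than in the S4 mutant (58.0% of all genes). In the S1 mutant only 21 of 41 were higher than in the S5 mutant. Mki67, a marker of cycling cells, followed the order in S0 to S4 only roughly: it was at 31.2 RPKM in the S0 mutant and 47.9 in its control, 50.8 to 55 in S1 and S2, 32.4 and 37.1 in S4, and 8.52 and 5.70 in S3. In S5, Mki67 was at 0.631 RPKM in the mutant and 1.65 in the control, though the member medians there were among the higher ones.

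**Figure D2:**
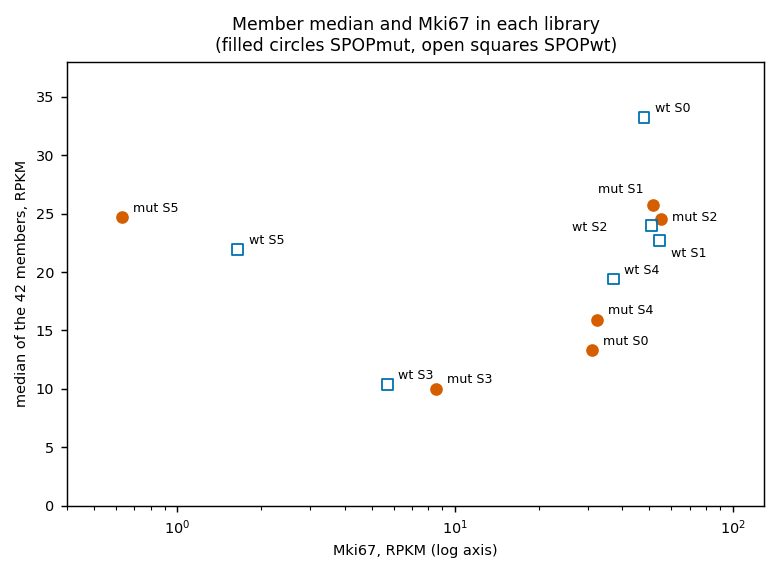
Median RPKM of the 42 members in each library (vertical axis) against the RPKM of Mki67 (horizontal log axis), with SPOPmut as filled circles and SPOPwt as open squares. The libraries of S5 have Mki67 at 0.631 and 1.65 RPKM with member medians of 24.7 and 21.9 RPKM, and those of S3 have the lowest member medians.

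Within S0, all 41 tested members were lower in the mutant than in its control, where 50.8% of all genes were lower, and 28 were at least 2-fold lower, where 3.21% of all genes were. The median difference was -1.23 on the log2 scale against -0.010 over all genes, running from -0.53 for Nob1 to -2.10 for Srm. For every tested member this pair held its largest difference, a share not computed over all genes. S0 was the widest pair over all genes too. Their 5th to 95th percentile ran from -0.876 to 0.923, against -0.517 to 0.444 in S5 and narrower ranges in the other pairs. At least 2-fold lower in the S0 mutant were 437 of all genes, and 564 were at least 2-fold higher. Set against the other libraries of their genotype, the S0 control was high and the S0 mutant lay inside the range of the others. The S0 control was above the controls of S1 to S4 in 40 of 41 members (26.4% of all genes), with a median of 0.86 over their mean on the log2 scale. The S0 mutant was below the mutants of S1 and S2 in 41 of 41 (54.9% of all genes), with a median of -0.40 against the mean of the S1 to S4 mutants, but its member median of 13.3 RPKM lay between those of the S4 mutant (15.9) and the S3 mutant (10.0), and it held the lowest level of 0 members. The same 2 libraries differed in other respects: the summed level of 10 proliferation markers was 221 RPKM in the mutant and 402 in the control, with 10 of 10 lower, that of 5 smooth muscle markers was 112 and 803 RPKM, and that of 8 luminal markers was 219 and 90.6 RPKM. Myh11 and Des of the smooth muscle list stayed under 0.5 RPKM in every library. The part of these marker differences in the members' difference was not tested.

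The other 5 pairs differed less and in both directions. In S4 all 41 members were lower in the mutant (58.0% of all genes), with a median of -0.27 on the log2 scale, from -0.54 for Myc to -0.099 for Nob1. In S3, 31 were lower (48.7%), with a median of -0.089. In S1 only 2 were lower, Nop56 and Rrp1b (41.1%), and the median was 0.30, with Srm highest at 0.57. S2 had 5 lower (34.3%) and a median of 0.14. With quantile normalization, 7 were lower in S1 (49.0% of all genes) and 9 in S2 (48.0%), and with TMM scaling 6 (49.3%) and 7 (49.6%). In S5, 13 were lower (50.1%), the median was 0.072, and the differences ran from -0.60 for Npm1 to 0.48 for Rrs1. Of the 41 members, 39 were higher in the mutant of S1 and lower in that of S4, and 40 had at least 1 pair in each direction. Only 1.68% of all genes were lower in all 6 pairs. The shares of all genes for these 2 counts were not computed, so neither is read as a trait of the members. Proliferation markers had median differences of -0.024 in S1, 0.095 in S2, 0.44 in S3, -0.28 in S4 and -0.66 in S5, so that they and the members had opposite signs in S1, S3 and S5. Their part was not tested. Each pair is 1 library a genotype, and these differences have no replicate check.

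**Figure D3:**
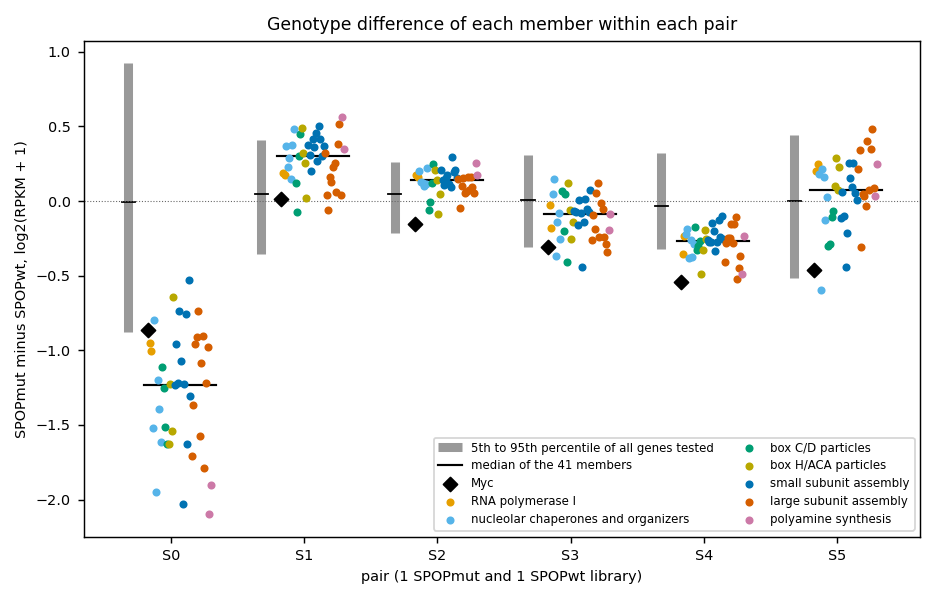
Difference SPOPmut minus SPOPwt on the log2(RPKM + 1) scale (vertical axis) in each pair (horizontal axis), with a point for each of the 41 tested members coloured by role, Myc as a diamond, a line at their median, and a grey bar from the 5th to the 95th percentile of all genes tested with its median marked. Differences in S0 lie between -2.10 and -0.53 for the tested members, those of S1, S2, S3 and S5 lie on both sides of 0, and those of S4 all lie below it.

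Myc (chr15:61985391-61990374, plus strand, GRCm38) was at 30.6, 56.9, 54.8, 18.8, 40.5 and 118 RPKM in the mutants of S0 to S5 and at 56.4, 56.3, 61.1, 23.5, 59.5 and 162 RPKM in their controls. It was lower in the mutant in 5 of 6 pairs and level in S1, where the difference of 0.014 became -0.089 with quantile normalization and -0.037 with TMM scaling. The groups overlapped, because pairs differed more than genotypes. The mean was 53.2 ± 34.7 RPKM in mutants and 69.9 ± 47.4 in controls (SD, n = 6 each), and the paired log2 difference was -0.39 (SE 0.12, 95% confidence interval -0.65 to -0.12, limma adjusted p = 0.881). Unlike 25 of the 41 tested members, which changed sign without S0, it stayed below 0 (-0.29, SE 0.090, limma adjusted p = 0.514). At an unadjusted p under 0.05 there were 2 members, Myc and Nop56, of 41, with S0 (5.60% of all genes) and without it (7.91%), which is no larger a share than that of all genes. Mycn, the form of MYC known from neural and neuroendocrine tissue, was at 0.460, 2.22, 1.86, 0.649 and 1.71 RPKM in the mutants of S0 to S4 and at 1.70, 0.729, 0.850, 0.419 and 2.45 RPKM in the controls. It was listed at 0 in both libraries of S5, the pair with the highest Myc.

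RNA polymerase I was represented by its 2 largest subunits, which form the catalytic centre. Polr1a was at 10.3, 18, 18.3, 7.64, 11.8 and 15.5 RPKM in the mutants of S0 to S5 and at 20.8, 15.7, 16.0, 7.81, 15.3 and 13.4 RPKM in the controls. Polr1b was at 3.92, 7.26, 7.55, 2.81, 4.26 and 12.9 RPKM in the mutants and at 8.87, 6.33, 6.66, 3.32, 5.19 and 10.7 RPKM in the controls. Both subunits had the same signs in every pair, with differences of -0.95 and -1.0 in S0, lower mutants in S3 and S4, and higher mutants in S1, S2 and S5. Their fitted differences were -0.13 (SE 0.16, limma adjusted p = 0.902) and -0.14 (SE 0.16, limma adjusted p = 0.90).

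The nucleolar chaperones and organizers were 6: Ncl (nucleolin), Npm1 (nucleophosmin), Nolc1, Mybbp1a, Gnl3 (nucleostemin) and the RNA helicase Ddx21. Ncl (chr1:86344719-86359400, minus strand), which binds nascent ribosomal RNA, was at 60.1, 149, 131, 43.5, 65.8 and 69.9 RPKM in the mutants of S0 to S5 and at 175, 115, 114, 42.1, 77.0 and 61.4 RPKM in the controls. The S0 mutant had 34.4% of its control's level, while mutants of 4 other pairs were above theirs. Npm1 was at 136, 244, 222, 121, 143 and 97.0 RPKM in the mutants and at 238, 208, 204, 109, 163 and 147 RPKM in the controls. Its S5 difference of -0.60, the lowest of the members in that pair, followed -0.80 in S0. Nolc1, which escorts small nucleolar particles, was at 23.7, 66.7, 60.8, 13.5, 26.1 and 45.7 RPKM in the mutants and at 94.3, 54.3, 55.7, 17.7, 34.3 and 39.2 RPKM in the controls. Its S0 difference, -1.95, was the largest of this group, and its fitted difference of -0.34 (SE 0.27, limma adjusted p = 0.887) was -0.024 without S0. Ddx21, which links RNA polymerase I transcription to processing, was at 18.8, 48.8, 43.6, 10.9, 21.7 and 63.9 RPKM in the mutants and at 59.8, 34.6, 37.3, 13.2, 26.7 and 62.5 RPKM in the controls. All 6 of the group were lower in the S0 mutant, 5 of them at least 2-fold.

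Box C/D particles methylate ribosomal RNA. Of their proteins, Fbl (fibrillarin) is the methyltransferase, Nop56 and Nop58 form the core, and Rrp9 belongs to the particle that starts processing of the small subunit. Nop56 (chr2:130274430-130279313, plus strand) was at 20.8, 37.7, 37.7, 10.6, 21.1 and 41.9 RPKM in the mutants of S0 to S5 and at 50.9, 39.6, 37.8, 12.4, 26.7 and 51.3 RPKM in the controls. It was the only tested member lower in the mutant in all 6 pairs (1.68% of all genes were), although by -0.005 in S2. Its fitted difference was -0.36 (SE 0.16, limma adjusted p = 0.886), and -0.18 without S0 (limma adjusted p = 0.585). Exons of Nop56 overlap those of Idh3b on the other strand and hold small nucleolar RNAs, and the library kit does not mark strand, so reads there cannot be told apart. Fbl was at 17.4, 24.2, 24.2, 8.68, 15.7 and 19.1 RPKM in the mutants and at 38.9, 22.1, 25.3, 8.23, 17.8 and 23.8 RPKM in the controls. Nop58 was at 8.49, 21.4, 18.6, 5.01, 9.90 and 8.79 RPKM in the mutants and at 26.1, 17.2, 17, 4.81, 12.4 and 9.53 RPKM in the controls. Rrp9 was at 4.09, 10.5, 9.34, 2.27, 4.47 and 11.9 RPKM in the mutants and at 14.7, 7.44, 7.71, 3.35, 5.59 and 12.6 RPKM in the controls. All 4 genes were at least 2-fold lower in the S0 mutant and all 4 were lower in the S5 mutant, by -0.070 to -0.30 on the log2 scale.

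Box H/ACA particles turn uridines into pseudouridines, with Dkc1 (dyskerin) as the enzyme and Gar1, Nhp2 and Nop10 as its partners. Nhp2 was at 23.8, 55, 45.9, 14.7, 29.6 and 68.9 RPKM in the mutants of S0 to S5 and at 71.0, 45.9, 48.8, 17.6, 34 and 65.3 RPKM in the controls. Gar1 was at 10.5, 21.8, 20.05, 5.81, 11.8 and 14.5 RPKM in the mutants and at 25.8, 17.3, 18.1, 6.08, 15.1 and 11.7 RPKM in the controls. Nop10 varied less, at 22.6, 33.6, 32.4, 13.4, 23.9 and 38.2 RPKM in the mutants and at 35.8, 33.1, 31.4, 14.8, 28.6 and 32.5 RPKM in the controls. In S0 the 4 genes differed by -0.64 (Nop10) to -1.63 (Dkc1). In S5 all 4 were higher in the mutant, by 0.076 to 0.29, opposite to the box C/D proteins in that pair, a contrast of 1 library with 1 that was not tested.

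Small subunit assembly was the work of 11 members. Wdr43, Utp20, Heatr1, Nop14 and Noc4l belong to the early processome or its surroundings, Rrp12 and Ltv1 take part in export and late maturation, and Tsr1, Bysl, Pno1 and the nuclease Nob1 act on the late precursor. Wdr43 was at 18.9, 40.7, 37.2, 12.4, 18.6 and 38.5 RPKM in the mutants of S0 to S5 and at 45.7, 31.2, 32, 13, 22.6 and 41.8 RPKM in the controls. Heatr1 was at 6.77, 14.5, 13.9, 4.36, 6.97 and 11.9 RPKM in the mutants and at 17.1, 12.5, 12.8, 5.00, 8.66 and 12.8 RPKM in the controls. Both had their highest level in the S0 control and their lowest in the S3 mutant. Tsr1 was at 14.0, 28.9, 25.8, 13, 17.7 and 24.3 RPKM in the mutants and at 34.2, 23.9, 24.2, 14.4, 21.6 and 21.7 RPKM in the controls. Ltv1 was at 10.1, 17.3, 16.1, 8.37, 10.5 and 36.6 RPKM in the mutants and at 17.8, 11.9, 12.9, 8.29, 11.6 and 34.2 RPKM in the controls. Ltv1 was the 1 tested member whose fitted difference was above 0, at 0.004 (SE 0.15, limma adjusted p = 0.998), and TMM scaling turned it to -0.003. In S0, Rrp12 had the lowest share of its control of all members, with 5.00 RPKM against 23.5 (21.3%), and Nob1 the highest, 66.9%. In S0 all 11 were lower, 7 of them at least 2-fold, and in S4 all 11 were lower again.

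Large subunit assembly also had 11 members: the RNA methyltransferase Nop2, Pes1, Bop1 and Wdr12 (which form a complex), Nop16, Rrp1b, the helicase Ddx18, Noc2l, Grwd1, Rrs1 and Ppan. Nop2 was at 16.2, 39.1, 35.5, 10.6, 17.7 and 50.4 RPKM in the mutants of S0 to S5 and at 55.2, 31.1, 32, 13, 23.9 and 43.3 RPKM in the controls. Noc2l was at 29.96, 52.5, 52.8, 23.9, 34.2 and 37.1 RPKM in the mutants and at 56.9, 50.3, 50.1, 24.9, 37 and 35.3 RPKM in the controls. The 2 genes show the spread within this group: their S0 differences were -1.71 and -0.90, while those of the other pairs lay between -0.41 and 0.32. Rrp1b was at 5.04, 7.89, 8.74, 2.77, 4.95 and 7.95 RPKM in the mutants and at 10.7, 8.28, 8.08, 3.30, 6.05 and 10.1 RPKM in the controls. It was lower in 5 of 6 pairs, with a fitted difference of -0.28 (SE 0.13, limma adjusted p = 0.887). Ddx18 was at 9.26, 18.6, 17.2, 6.79, 10.7 and 10.3 RPKM in the mutants and at 20.7, 15.5, 15.2, 6.85, 12 and 7.57 RPKM in the controls. Within the Pes1, Bop1 and Wdr12 complex the S0 differences were -0.74, -1.58 and -0.91. All 11 were lower in the S0 mutant and in the S4 mutant, 6 of them at least 2-fold in S0.

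The polyamine enzymes had the widest S0 difference of any role group, with a median of -2.0 on the log2 scale. Srm, spermidine synthase (chr4:148591503-148594993, plus strand), was at 19.3, 80.8, 72.2, 11.5, 29.3 and 20.05 RPKM in the mutants of S0 to S5 and at 85.9, 54.2, 60.4, 13.3, 41.5 and 19.6 RPKM in the controls. Odc1, ornithine decarboxylase and the rate-limiting enzyme (chr12:17544794-17551505, plus strand), was at 18, 50.9, 46.5, 15.1, 36.6 and 55.2 RPKM in the mutants and at 70.4, 39.7, 41.2, 16.1, 43.3 and 46.2 RPKM in the controls. In S0 the mutant had 22.5% of its control's Srm and 25.6% of its Odc1. In S1 the mutant had more of both, with differences of 0.57 and 0.35. Srm thus had the largest log2 difference of the tested members in S0 and in S1, in opposite directions. The fitted differences were -0.32 for Srm (SE 0.31) and -0.24 for Odc1 (SE 0.28), with limma adjusted p-values of 0.887 and 0.90, and without S0 they were 0.034 and 0.090.

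S5, the pair with epithelial markers, was set against S0 to S4 as 1 pair against 5, which allows no test. Both S5 libraries lay above all 10 others for 8 of 41 tested members (21.4% of all genes) and below them for 0 (28.1% of all genes). The members' median difference was 0.46 on the log2 scale, against -0.071 over all genes. The share above the range was near that of all genes and is no result about the members. Without S0 the count was 15 (22.7% of all genes), and with quantile normalization 13 (28.0%). The 8 were Myc, Polr1b, Ddx21 and 5 small subunit factors, Utp20, Nop14, Noc4l, Ltv1 and Nob1. Myc, at 118 and 162 RPKM against 18.8 to 61.1 in S0 to S4, had the widest difference, 1.67. Ltv1 followed with 1.48 (36.6 and 34.2 RPKM against 8.29 to 17.8), then Nop14 with 1.40 (31.2 and 42.8 RPKM against 10.4 to 19) and Ddx21 with 1.16. No large subunit factor lay above the range of S0 to S4, but this depended on S0. Against S1 to S4 alone, Nop2 (50.4 and 43.3 RPKM against at most 39.1) and Ppan (26.9 and 25.3 RPKM against at most 24.8) lay above. In the other direction Srm had -0.91, Npm1 -0.52 and Ddx18 -0.45. Myc was highest in these libraries, where Srm, at 20.05 and 19.6 RPKM, was among the lower values. Odc1, the other polyamine enzyme of the list, went the other way there, with 0.56 (55.2 and 46.2 RPKM). The summed proliferation markers were 27.8 and 45.0 RPKM in S5 and 49.0 to 412 RPKM in S0 to S4. Cell type and proliferation differ between the same libraries, and their parts cannot be told apart.

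**Figure D4:**
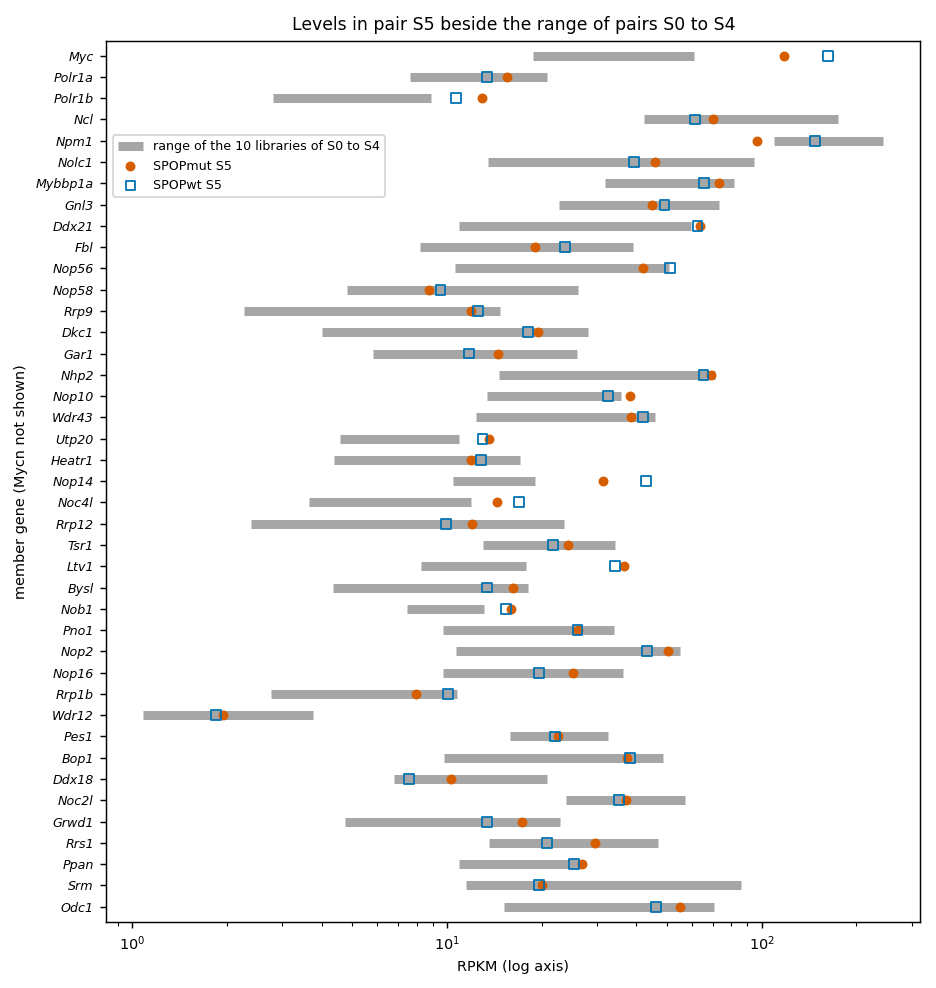
RPKM (log axis) of the 41 tested members, rows by role, with the range of the 10 libraries of S0 to S4 as grey bars, the S5 mutant as a filled circle and the S5 control as an open square. Both S5 points of Myc, Ltv1 and Nop14 lie above the bar, those of Srm lie in its lower part, and the Npm1 mutant, at 97.0 RPKM, lies below its bar.

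Genes of the same pathway outside the list were read from the same fit, and 0 passed in any of them. Other small subunit factors (35 of 36 listed genes found and tested) had a median S0 difference of -0.75 with 33 lower and 8 at least 2-fold lower, and other large subunit factors (41) one of -0.71 with 40 lower and 10 at least 2-fold lower. Both medians lay between that of all genes and the members' -1.23. The small subunit proteins Wdr46 (7.07 RPKM in the S0 mutant, 21.9 in its control) and Rcl1 (11.3 and 29.5 RPKM) had the largest S0 differences in their list, and Nifk (16.6 and 42.2) and Ftsj3 (16.0 and 39.4) in theirs. Other RNA polymerase I factors (14 genes, median -0.30 in S0) and RNA polymerase III subunits and factors (15, -0.21) were closer to all genes. The largest S0 differences among the former were of Cd3eap (4.22 RPKM in the mutant, 11.7 in the control) and Tcof1, or treacle (11.5 and 28.1 RPKM), and Polr3gl, among the latter, was at 10.4 and 3.46 RPKM. Maf1, a repressor of RNA polymerase III, was at 31.9 RPKM in the S0 mutant and 16.2 in its control, and within 0.14 on the log2 scale in the other pairs. In the polyamine pathway (13 of 15 tested), Amd1, which supplies the aminopropyl group, was at 6.34 and 14.3 RPKM in the S0 mutant and control and at 40.7 and 41.7 RPKM in S5. Genes of metabolism and translation known as MYC targets (24) were lower in 24 of 24 in S0, with a median of -0.80, among them Hspd1 at 50.6 RPKM against 160 and Gart at 9.58 against 29.6.

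Cytosolic ribosomal protein genes, which code for the proteins of the finished ribosome, were read beside the assembly factors. Their median S0 difference was -0.077 with 25 of 38 lower, and quantile normalization turned it to 0.11 with 8 lower, so no direction is given. In S5 their median was -0.49 with 37 of 38 lower in the mutant, and under quantile normalization -0.32 with 35 lower, a pair where the members' median was 0.072. Gapdh and Ppia, looked up after the values were seen because they have many processed pseudogenes, were at 8.40 to 29.8 and 3.11 to 8.08 RPKM. Ribosomal protein genes and Npm1 also have such copies, and how reads that map to several places were counted is not given, so their levels are uncertain.

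Among 21 partners of MYC and MAX, 10 were lower and 11 higher, with a median of 0.002. Mxd4, which pairs with MAX in place of MYC and represses, is named because it had the smallest p and the largest S0 difference of the 21. It had its higher level in the mutant of 6 of 6 pairs, a share not computed over all genes. Its part in the members' differences was not tested. Mxd4 was at 12.1, 8.17, 7.43, 18.4, 13.4 and 17.4 RPKM in the mutants of S0 to S5 and at 3.54, 4.84, 5.03, 17.7, 9.90 and 15.3 RPKM in the controls. The difference was widest in S0 (1.53) and smallest in S3 (0.054), and its fitted value of 0.55 (SE 0.18, limma adjusted p = 0.881) did not pass.

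**Figure D5:**
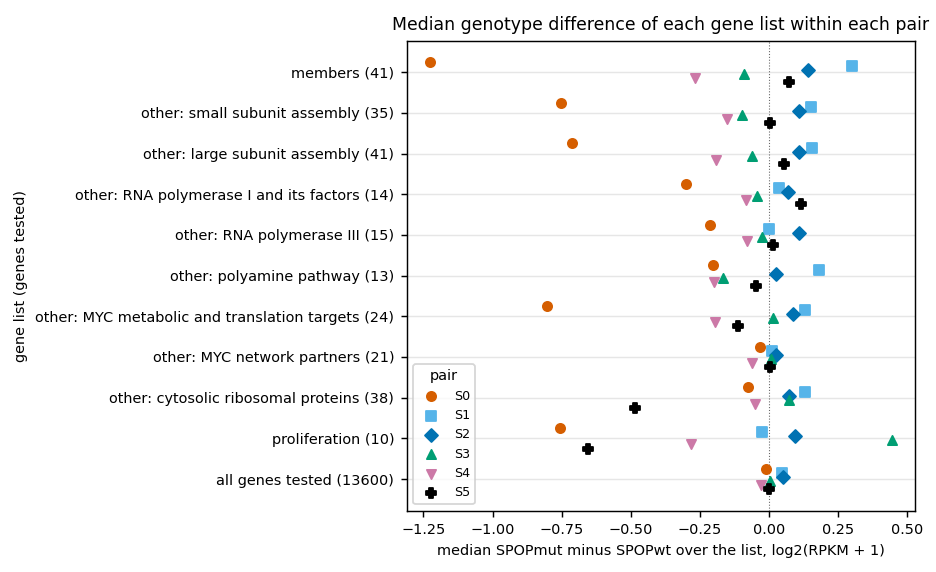
Median difference SPOPmut minus SPOPwt on the log2(RPKM + 1) scale (horizontal axis) of the members, the other pathway lists, proliferation markers and all genes (rows), with a symbol for each pair. In S0 the members have -1.23, the other assembly factors -0.75 and -0.71, and ribosomal proteins -0.077; in S5 ribosomal proteins have -0.49.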

How the data were processed

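RNA-seq of 12 mouse prostate organoid libraries, 6 SPOPmut and 6 SPOPwt, was analysed. The authors deposited RPKM values per gene name, 1 library a file. STAR 2.4.0j is named in the submitters' processing notes, with mm10 and GRCm38 as builds. How reads were counted, on which annotation, and what was done with reads of several places is not given in the sources used here. The TruSeq kit, version 2 per the labels' protocols, does not mark strand. Depth was estimated from the step of low values: 43.5 to 47.0% of them lay within 0.04 reads of a step of 0.5 reads, against 16% by chance. This is too few to recover whole reads, so count tests and counting intervals were left out. A depth 2 times as high fits the step alike, and the lower was taken. RPKM sums ran from 316623 to 358260, and the 10 highest genes took 7.99 to 14.7% of them.

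Values were taken as log2(RPKM + 1), which understates differences of low genes. Genes at 1 RPKM or more in at least 6 of the 12 libraries (13600) were fitted with limma 3.58.1 in R 4.3.3, with terms for pair and genotype and a robust, trended prior, two-sided, Benjamini-Hochberg adjusted, called under 0.05. Other computing used numpy 2.4.6, pandas 2.3.3, matplotlib 3.10.9 and scipy 1.17.1 in Python 3.11.15. The fit was tested on simulated data with noise of the same spread in every library. These held no pair as wide as S0, so the test says nothing about its effect on the fit. Differences within 1 pair, and of S5 from S0 to S4, are values without a test. Numbers pair the libraries because the protocols speak of pairs. Same-numbered libraries of S1 to S5 deviated together from their group means (correlations 0.753 in S1, 0.888 in S2, 0.946 in S3, 0.862 in S4, 0.954 in S5). Those of S0 hardly did (0.0602), so S0 is a pair by its number alone. No libraries were merged: the closest, the S1 and S2 controls, had a median chi-square per gene of 1.10, and the S1 and S2 mutants 1.81. Every other comparison within a group gave 6.09 or more. S1 and S2 were thus far more alike than the rest, and the fit still counts them as separate pairs. All these values rest on the lower depth estimate.

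Coordinates and exon overlaps come from the GENCODE annotation of GRCm38, in which 91.2% of names were found. Exons of 19 members overlap a gene on the other strand and those of 5 a gene on the same strand. Promoter letters are RefSeq's. Proteins and the windows of 7 members were not used here. Utp4, of the small subunit list, and the marker Adgre1 were not found by name.

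The members and lists were chosen with earlier results of these data known. Values in every library are given for Myc, Mycn, Srm, Odc1, Polr1a and Polr1b, and in each other role for the 2 tested members of highest mean, the 1 of smallest p, and those of largest S5 difference in each direction. From the other lists, the 2 of smallest p and the 2 of largest S0 difference could be named; a gene that this rule picks is not reported here. Alternatives were other pseudocounts, filters, scalings, priors, pair weights, no pair term, and leaving out each pair.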

Additional observations from a re-analysis of the deposited data

Results flagged for a closer look

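In the 6 pair differences of each of the 41 tested members, the gap of the lowest or highest value to its neighbour, divided by the whole range, was set against Dixon's 95% critical value, which chance exceeds in about 1 of 20 groups. The S0 difference stood apart by this measure in 19 of 41 members and no other pair's difference did. The same count was not made over all genes, whose S0 differences were also wide (5th to 95th percentile -0.876 to 0.923). It is thus no result about the members. For those 19 the values follow. On the log2 scale the S0 difference was -1.524 for Ncl, -1.948 for Nolc1, -1.2 for Mybbp1a, -1.616 for Ddx21, -1.115 for Fbl, -1.25 for Nop56, -1.512 for Nop58, -1.539 for Nhp2 and -1.22 for Heatr1. It was -2.028 for Rrp12, -1.227 for Tsr1, -1.625 for Bysl, -1.307 for Pno1, -1.708 for Nop2, -1.365 for Nop16, -0.735 for Pes1, -1.576 for Bop1, -0.902 for Noc2l and -1.906 for Odc1. The members share both S0 libraries, so the 19 are not separate observations. Among levels within a genotype, the S3 control stood apart for Dkc1 at 4.01 RPKM and Nop10 at 14.8 RPKM, each the lowest of the 6 controls.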

How the results depend on the processing

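With pair weights, 9 genes were called, 0 of them members. The median member difference was -0.199, 0.036 with pair weights, and -0.294 to 0.014 when each pair was left out, above 0 only without S0. Without the replicate block, which treats the libraries as unpaired, 0 genes and 0 members were called and the median stayed at -0.199; 17 genes were higher and 12 lower at an unadjusted p under 0.05. Genes called were 0 in each run without 1 pair. S5 lay above the S0 to S4 range for 13 of 41 members with quantile normalization (28.0% of all genes) and for 8 to 15 when a pair was left out, 15 without S0 (22.7% of all genes). Pair weights, which give the noisier pairs less weight, turned the direction of 27 members: 0.099 (Bysl), 0.097 (Ddx18), 0.065 (Ddx21), 0.104 (Dkc1), 0.056 (Gar1), 0.015 (Gnl3), 0.011 (Grwd1), 0.113 (Ncl), 0.112 (Nob1), 0.011 (Noc2l), 0.063 (Noc4l), 0.076 (Nop14), 0.000 (Nop2), 0.040 (Nop58), 0.047 (Npm1), 0.068 (Odc1), 0.035 (Pes1), 0.084 (Pno1), 0.058 (Polr1a), 0.036 (Polr1b), 0.043 (Rrp9), 0.016 (Rrs1), 0.071 (Srm), 0.009 (Tsr1), 0.051 (Utp20), 0.064 (Wdr12), 0.080 (Wdr43). Leaving out each pair turned the direction of 26 members, only in the run without S0 except for Ltv1, whose value was below 0 without S1, S2 or S5. Their lowest and highest values were -0.294 to 0.114 (Bysl), -0.167 to 0.130 (Ddx18), -0.382 to 0.038 (Ddx21), -0.339 to 0.085 (Dkc1), -0.237 to 0.073 (Gar1), -0.409 to 0.025 (Grwd1), -0.095 to 0.156 (Ltv1), -0.271 to 0.001 (Mybbp1a), -0.263 to 0.115 (Ncl), -0.087 to 0.079 (Nob1), -0.187 to 0.009 (Noc2l), -0.279 to 0.008 (Noc4l), -0.405 to 0.002 (Nop2), -0.349 to 0.014 (Nop58), -0.362 to 0.090 (Odc1), -0.137 to 0.035 (Pes1), -0.265 to 0.071 (Pno1), -0.194 to 0.037 (Polr1a), -0.218 to 0.032 (Polr1b), -0.487 to 0.010 (Rrp12), -0.275 to 0.072 (Rrs1), -0.498 to 0.034 (Srm), -0.279 to 0.019 (Tsr1), -0.220 to 0.033 (Utp20), -0.180 to 0.035 (Wdr12), -0.294 to 0.027 (Wdr43). TMM scaling turned Ltv1 to -0.003. The other members kept their direction in these runs. Depth limits are not known beyond the estimate, because RPKM holds no counts.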
